A study of Mus musculus with 30 samples.

Results

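MHC class I antigen presentation was followed through 10 mouse genes in cultured aortic smooth muscle cells: the classical heavy chains H2-K1 and H2-D1, the light chain B2m, the peptide transporter subunits Tap1 and Tap2, the loading factor Tapbp, the immunoproteasome subunits Psmb8, Psmb9 and Psmb10, and the transactivator Nlrc5. They were chosen by name, as the core of the pathway, and matched to the deposited table through their Ensembl identifiers. All 10 were found among the 78334 gene identifiers, and all 10 passed the filter on low counts in both sequencing runs. The series holds 30 RNA-seq libraries in 9 groups, made to follow the effect of the long noncoding RNA CASC15 on these cells. All cells were transfected, kept for 48 h without serum and, where treated, exposed for 24 h.

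Run 2 held 4 groups of untreated cells. The antisense control (2 libraries) received a control GapmeR, an antisense oligonucleotide that recruits RNase H, and the group labelled total CASC15 knockdown (2 libraries) received a GapmeR to that RNA. The plasmid control (3 libraries) received control plasmid DNA, and the total CASC15 overexpression group (3 libraries) received an expression plasmid. Run 3 held 5 groups of 4 libraries: the GapmeR control without treatment, with 10 ng/ml of the vasoactive peptide angiotensin II or with 10 to 30 ng/ml of the growth factor PDGF-BB, and the long CASC15 knockdown without treatment or with angiotensin II. No knockdown cells received PDGF-BB. No group was left without transfection, so every comparison is between transfected cells. The growth protocol speaks of mouse and rat cells. No label says that libraries of a group came from separate animals or cultures, so p-values measure the spread between these libraries, which may be technical.

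Class I molecules display peptides from inside the cell to CD8 T cells on nearly every nucleated cell type. Peptides cut by the proteasome enter the endoplasmic reticulum through the TAP transporter, are loaded with help from tapasin, and travel to the surface on a heavy chain bound to beta-2 microglobulin. Interferons raise the whole pathway: they replace the constitutive catalytic proteasome subunits with the immunoproteasome subunits, and NLRC5 binds class I promoters through a protein complex assembled on the SXY module. In vascular smooth muscle, class I is known chiefly as an interferon-inducible surface antigen in transplant arteriopathy.

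Promoter sequences are shown for 3 members, the parts of the class I molecule itself, because the heavy chains and light chain carry most of the motifs searched and their levels are described in detail. They are the 250 bases before the first listed transcription start in RefSeq (build GRCm38.p6), each 5′ to 3′ on the strand of the gene. H2-K1 lies at chr17:34000348-34000597 (minus strand), H2-D1 at chr17:35262844-35263093 (plus) and B2m at chr2:122147437-122147686 (plus). Capitals mark a kB motif, the site of NF-kB dimers, in both heavy chains. In B2m the first run of capitals is the interferon-stimulated response element core (GAAA, 2 bases of any kind and GAAA), and the last is a looser kB motif (GGG, 2 bases of any kind and TTTCC) read on the other strand.
H2-K1: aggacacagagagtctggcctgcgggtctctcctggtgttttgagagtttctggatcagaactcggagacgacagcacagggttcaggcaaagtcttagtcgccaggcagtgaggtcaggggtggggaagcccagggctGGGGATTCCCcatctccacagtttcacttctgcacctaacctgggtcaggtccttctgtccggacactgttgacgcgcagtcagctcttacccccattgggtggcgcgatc
H2-D1: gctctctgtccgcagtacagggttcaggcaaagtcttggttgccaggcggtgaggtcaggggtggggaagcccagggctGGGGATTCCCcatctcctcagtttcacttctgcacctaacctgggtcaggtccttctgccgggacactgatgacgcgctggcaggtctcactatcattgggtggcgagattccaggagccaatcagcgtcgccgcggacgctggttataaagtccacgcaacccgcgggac
B2m: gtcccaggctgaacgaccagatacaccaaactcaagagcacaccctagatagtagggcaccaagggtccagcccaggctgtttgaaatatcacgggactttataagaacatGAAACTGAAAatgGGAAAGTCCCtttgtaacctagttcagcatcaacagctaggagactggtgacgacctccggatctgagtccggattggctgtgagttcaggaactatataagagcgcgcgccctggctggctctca

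RefSeq promoters were matched for 8 of the 10 members, and Tap2 and Nlrc5 are named only. Over both strands, the kB motif of the heavy chains was held by 2 of the 8 members and by 0.0852% of 32851 promoters of the same length. Both matches stand in a stretch that H2-K1 and H2-D1 share nearly letter for letter, so they are not separate finds. The share is a description, and enrichment was not tested. The other motifs were each searched the same way. The interferon-stimulated response element core was in 1 of 8 members and 2.98% of promoters, the looser kB motif in 1 of 8 and 1.41%, and the interferon-gamma activated site TTCNNNGAA in 1 of 8, which was Psmb8, and 7.02%. The response element core was searched in its exact form only, so a promoter without a match may still hold a variant of it. The inverted CCAAT box ATTGG, part of the Y box of class I promoters, was in 6 of 8 and 33.8%, and the partial cAMP response element TGACG, part of the X2 box, in 5 of 8 and 17.8%. In H2-K1, H2-D1 and B2m, TGACG began 25 bases before an ATTGG on the same strand, a spacing noticed after the positions were seen. Of the 32851 promoters, 30 (0.0913%) held the pair at that spacing on either strand, and 3 of the 8 members did. Tap1 and Psmb9 are transcribed away from each other, and their 300-base RefSeq windows, which also run a short way past each start, share 275 bases. A match describes letters in a window, and binding was not measured.

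Total expected counts ranged from 18007199 to 21881959 per library in run 2 and from 15771490 to 30362047 in run 3. The presumed mouse CASC15 locus, 2610307P16Rik, was read first. It stood at 604 to 916 CPM (expected counts scaled to a common library size) in the overexpression libraries and 4.03 to 8.69 in the plasmid control, and at 2.15 to 3.48 CPM after long knockdown against 4.94 to 6.01 in the untreated control. In the libraries labelled total CASC15 knockdown it was not lower than in their control (9.73 and 8.29 against 7.66 and 6.37 CPM). Acta2 (96.5 to 441 CPM), Cald1 and Smtn were present in every library, but the defining contractile markers Myh11, Tagln and Cnn1 reached at most 6.67, 3.45 and 0.224 CPM. Decorin (Dcn), a fibroblast marker, stood at 563 to 2180 CPM. Ptprc, the pan-leukocyte marker CD45, reached at most 0.0998 CPM. Each batch label, P16 to P19, runs with the replicate number, so values of a group are given in batch order: P17, P18 and, where present, P19 in run 2, and P16 to P19 in run 3. In bulk RNA, fewer cells of a type and less RNA per cell cannot be told apart.

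B2m was the highest member per kilobase of transcript in all 9 groups. In the untreated control of run 3, on the scale of CPM per kb, B2m (426 ± 65.9, SD, n = 4) and Tapbp (87.1) were followed by H2-K1 (32.3 ± 1.28), H2-D1 (27.9 ± 2.88), Psmb10 (13.8), Tap1 (6.62), Tap2 (6.57), Psmb8 (2.33), Psmb9 (2.06) and Nlrc5 (0.0833). The neighbours Tap1 and Tap2, and likewise Psmb8 and Psmb9, did not differ beyond their spread in that group. Tapbp was next after B2m in every group but overexpression, where H2-K1 (599 CPM per kb) and H2-D1 (577) stood above Tapbp (373). In the antisense control of run 2, H2-D1 (13.1), Psmb10 (12.4), Tap2 (12.4), Tap1 (11.3) and H2-K1 (10.98) lay close together, and of these neighbours only Tap2 and Tap1 had SDs that did not overlap.

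**Figure D1:**
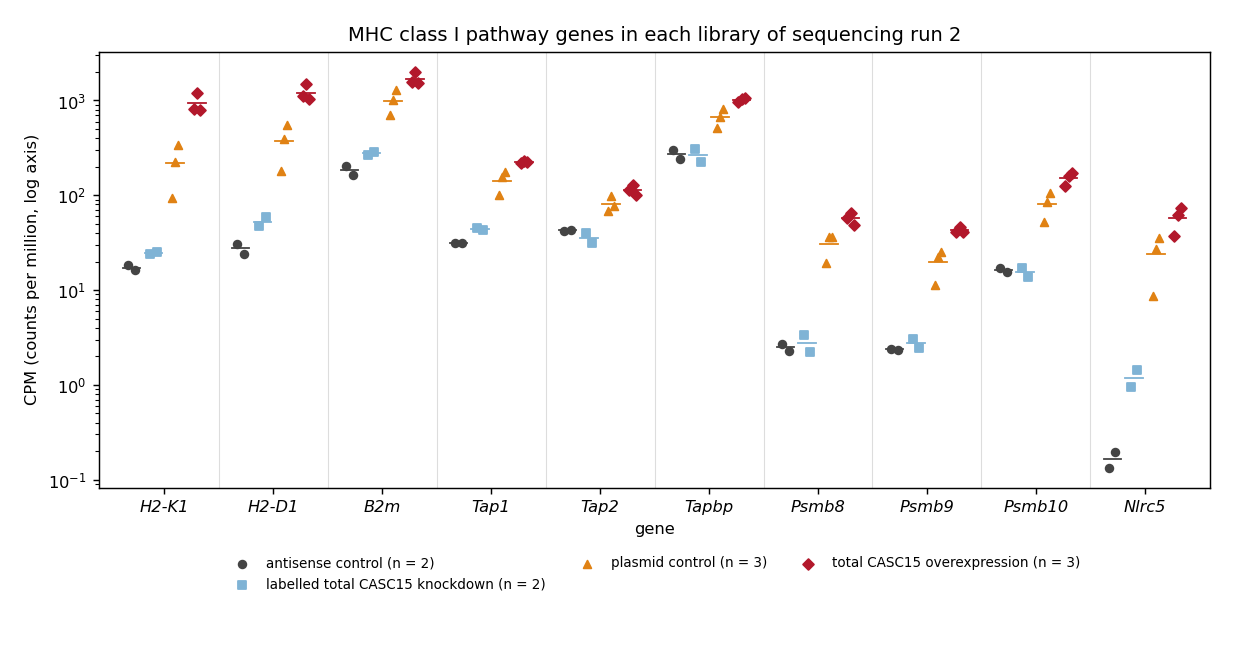
Level of each member in the 10 libraries of run 2, in CPM on a log axis. Points are libraries and dashes are group means. In the plasmid groups every member stood above both antisense groups. Between plasmid and antisense control, 14.9% of all genes were higher without overlap.

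Plasmid control against antisense control gave the largest differences of run 2 among the 10 members: all of them were higher after plasmid transfection, by 1.91-fold (Tap2) to 138-fold (Nlrc5, from 7 counts in the antisense control). The groups differ in the kind of nucleic acid transfected and in batch, since P19 holds plasmid libraries only. Within P17 the log2 ratio of plasmid to antisense control ran from 0.69 (Tap2) to 5.21 (Nlrc5) over the members and within P18 from 1.18 to 6.52, positive for all 10 in both. Here and in the other within-batch values, 0.1 CPM was added to each level before the log, which draws the ratio of a gene as low as Nlrc5 in the antisense control towards 0. Across all genes tested, 1.15% were called higher and 0.0261% lower by edgeR's quasi-likelihood test (Benjamini-Hochberg adjusted p under 0.05), against 10 of 10 members higher. The median log2 fold change was 2.74 over the members and 0.00 over all genes. The leukocyte marker sum was higher with plasmid too, at 11.5 to 12.9 against 8.69 to 10.47 CPM (6 and 8 of 14 at 0 throughout). So were the fibroblast sum (1131 to 1824 against 1027 to 1102 CPM) and the smooth muscle sum (749 to 1278 against 746 to 747 CPM). The endothelial sum overlapped (2.55 to 4.90 against 2.81 to 3.90 CPM). Single markers went both ways. Log2 fold changes were above 0 for 3 of 8 fibroblast markers tested (median -0.51), 6 of 10 smooth muscle, 3 of 4 leukocyte and 1 of 2 endothelial markers. No marker was called by edgeR. Their part in the member values was not tested.

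H2-K1, a classical heavy chain, stood at 18.3 and 16.2 CPM in the antisense control and at 92.9, 222 and 336 CPM in the plasmid control. The groups did not overlap, and the lowest plasmid library was the one of batch P17. Its rise was 3.65 on the log2 scale (SE 0.507, adjusted p = 0.00732). H2-D1, the other classical heavy chain, had 30.7 and 24.3 CPM in the antisense control and 178, 392 and 552 CPM in the plasmid control. Its plasmid libraries stood in the same order, and it rose by 3.77 on the log2 scale (SE 0.463, adjusted p = 0.00332). With the batch as a block, the adjusted p was 0.0729 for H2-K1 and 0.0505 for H2-D1, and both calls were lost. The 2 heavy chains are near-identical over long stretches, and some of their deposited values were not whole, so part of the reads was divided between loci.

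The light chain B2m was at 203 and 165 CPM in the antisense control and at 699, 1013 and 1285 CPM in the plasmid control, a rise of 2.44 on that scale (SE 0.263, adjusted p = 0.00117). Tap1, the transporter subunit, went from 31.5 and 31.5 CPM to 100, 154 and 175 CPM (2.18, SE 0.210, adjusted p = 0.000603). Its partner Tap2 had 41.8 and 43.3 CPM against 67.6, 98.2 and 77.9 CPM, the smallest rise of the 10 (0.93, SE 0.182, adjusted p = 0.0446). Tap1 and Tap2 were near equal per kilobase in the antisense control (mean Tap1 to Tap2 ratio 0.915) and unequal in the plasmid control (2.18). Tapbp, which encodes tapasin, stood at 299 and 243 CPM against 512, 663 and 816 CPM and rose by 1.29 on the log2 scale (SE 0.214, adjusted p = 0.0169).

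The immunoproteasome subunits were low in the antisense control. Psmb8 had 2.72 and 2.27 CPM there and 19.3, 36.6 and 36.1 CPM in the plasmid control (log2 fold change 3.61, SE 0.340, adjusted p = 0.000561). Psmb9 went from 2.41 and 2.32 CPM to 11.3, 22.3 and 25.2 CPM (3.05, SE 0.335, adjusted p = 0.00136). Psmb10, already the most abundant of the 3 in the antisense control, went from 17.1 and 15.4 CPM to 52.7, 85.6 and 106 CPM (2.33, SE 0.287, adjusted p = 0.00306). All 3 had their lowest plasmid value in batch P17. Nlrc5, the class I transactivator, had 3 and 4 counts in the antisense control and 190, 495 and 624 counts in the plasmid control. That is a ratio of 138 with a counting interval of 66.6 to 343 (95%, counting error only), and the fitted log2 value of 7.12 (SE 0.860, adjusted p = 0.00331) depends on the prior count.

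The antisense control held 2 libraries. Leaving out either one left an arm of 1 library, assumed to vary like the other groups of the run, and 4 members called: B2m, Tap1, Psmb8 and Psmb9. Without P17 or without P18 of that group, the adjusted p was 0.138 and 0.161 for H2-K1, 0.0698 and 0.0889 for H2-D1, 0.425 and 0.376 for Tap2, 0.123 and 0.293 for Tapbp, 0.0662 and 0.0816 for Psmb10, and 0.0988 and 0.0857 for Nlrc5. Tap2 was also not called without the plasmid library of P18 (adjusted p = 0.121) or P19 (0.0681), or without batch P19 (0.0704), and Tapbp was not called without the plasmid library of P18 (0.0583). H2-K1 (0.0662), Tap2 (0.135) and Tapbp (0.103) lost their calls when the other groups of the run were left out of the fit. Directions did not change in any of these fits.

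Overexpression of total CASC15 against the plasmid control placed every library of the overexpression group above every plasmid library for all 10 members, a pattern that 9.6% of all genes showed. Only H2-K1 passed the edgeR test over all genes, in which 1.09% of genes were called higher. DESeq2 also called H2-D1, B2m, Tap1, Tapbp, Psmb8, Psmb9 and Psmb10, and edgeR with no filter on low counts called every member. Both of those fits also called more of all genes. H2-K1 stood at 820, 1197 and 801 CPM with overexpression, against 92.9, 222 and 336 CPM in the plasmid control. Relative to the mean, the plasmid values were the more widely spread, and the groups did not overlap. The difference on the log2 scale was 2.11 (SE 0.395, adjusted p = 0.0373). This call was lost without the plasmid library of P18 (adjusted p = 0.149) and without the overexpression library of P17 (0.0789), P18 (0.132) or P19 (0.0512), while 7 members were called without the plasmid library of P19. It was also lost without the other groups of the run (0.142).

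Markers of other cell types also differed between overexpression and plasmid control. The summed level of the 14 leukocyte markers was 18.1 to 23.7 CPM against 11.5 to 12.9 CPM, with 5 and 6 of the 14 at 0 in all libraries of the group. Cd14, a monocyte marker that made up most of this sum, was called higher (18.8 ± 2.06 against 10.7 ± 0.403 CPM, adjusted p = 0.0262). Log2 fold changes of the 4 leukocyte markers tested ran from -1.39 to 3.01, and 3 were above 0. The fibroblast sum overlapped, at 1596 to 2157 against 1131 to 1824 CPM. Myl9, a smooth muscle myosin light chain, was called lower (2.27 ± 0.390 against 5.60 ± 0.985 CPM, adjusted p = 0.0193). Their part in the member values was not tested.

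H2-D1 had 1109, 1494 and 1034 CPM with overexpression, a log2 fold change of 1.70 (95% interval 0.89 to 2.50, adjusted p = 0.055). It was called by DESeq2 (adjusted p = 3.44e-05), by edgeR with no filter on low counts (3.02e-23) and in 2 of 6 edgeR fits that left out 1 library. The other 8 members had log2 fold changes from 0.49 for Tap2 to 1.29 for Nlrc5, with adjusted p between 0.0656 and 0.225. B2m was at 1574, 2007 and 1516 CPM and Nlrc5 at 37.6, 61.3 and 74.3 CPM. With the batch as a block, 9 of the 10 were called higher, Psmb8 being the exception (adjusted p = 0.059), and so were 9.4% of all genes. In that fit the adjusted p was 0.0344 for H2-K1, 0.046 for H2-D1, 0.0451 for B2m, 0.0143 for Tap1, 0.0431 for Tap2, 0.0215 for Tapbp, 0.0122 for Psmb9, 0.0199 for Psmb10 and 0.00162 for Nlrc5. The median over the members was 0.90 and over all genes 0.00. The plasmid control is shared with the comparison to the antisense control, so a low value there moves both comparisons in opposite directions.

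Within batches, the overexpression to plasmid ratio was above 1 for all 10 members in all 3 batches and had the same order of batches for each. For H2-K1 the log2 ratio was 3.14 in P17, 2.43 in P18 and 1.25 in P19. For H2-D1 it was 2.63, 1.93 and 0.90, and for B2m 1.17, 0.99 and 0.24. The H2-K1 level of the plasmid control was 92.9 CPM in P17 and 336 CPM in P19. Psmb9 had 1.84, 1.05 and 0.70, and Tap1 1.11, 0.57 and 0.37.

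The libraries labelled total CASC15 knockdown, in which the target was not lower, had no member called against the antisense control by edgeR. Of the 10, 3 had an unadjusted p under 0.05, beside 1975 of all 15350 genes, and DESeq2 called 1. Over all genes 2.07% were called. The group ranges did not overlap for 6 members that were higher and for 1 that was lower, against 26.4% and 23% of all genes with 2 libraries a group. H2-D1 was at 46.8 and 58.6 CPM against 30.7 and 24.3 CPM (log2 fold change 0.94, 95% interval -0.05 to 1.93, adjusted p = 0.416). H2-D1 was called with no filter on low counts (0.000144) and with only the groups compared in the fit (0.0143), and B2m in the latter too (0.0326). Nlrc5 had 19 and 32 counts against 3 and 4 counts, a ratio of 7.36 with a counting interval of 3.33 to 19.2 (adjusted p = 0.277, and 0.0315 with the batch as a block). Nlrc5 was also called by DESeq2 (0.0121), with no filter (1.13e-07) and with only the groups compared (0.0307). Cd68, a macrophage marker, stood at 15.6 and 15.9 CPM in these libraries and at 0.267 and 0.593 CPM in their control, while Ptprc was at 0 counts in all 4. The summed level of the 14 leukocyte markers was 27.7 to 32.5 CPM against 8.69 to 10.47 CPM. Endothelial markers summed to 6.02 to 10.17 against 2.81 to 3.90 CPM and fibroblast markers to 876 to 893 against 1027 to 1102 CPM, both without overlap, and 1 of 10 smooth muscle markers was called higher. The part of these markers in the member values was not tested.

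**Figure D2:**
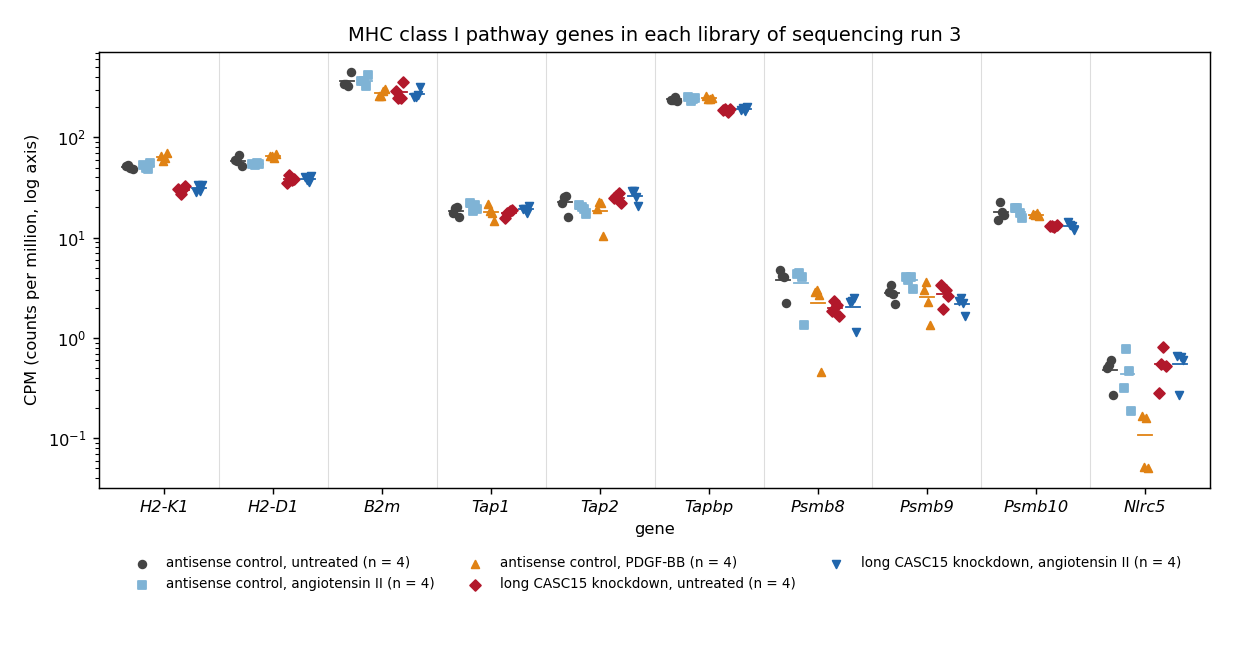
Level of each member in the 20 libraries of run 3, in CPM on a log axis. Points are libraries and dashes are group means. H2-K1, H2-D1 and Tapbp were lower in every long knockdown library than in every control library, and Nlrc5 was lowest with PDGF-BB.

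Knockdown of long CASC15 lowered the heavy chains, B2m, Tapbp and Psmb10 in untreated cells. Those 5 of the 10 members were called lower and none higher, while 12.8% of all genes were called lower and 12.3% higher. H2-K1 fell to 59.7% of its control, H2-D1 to 65.8%, Psmb10 to 72.6%, B2m to 77.6% and Tapbp to 78.6%. The median over the members was -0.36, against 0.02 over all genes. The ranges did not overlap for 4 members, all lower, against 12.2% of all genes. Markers moved in both directions in the same comparison: 2 of 7 fibroblast markers rose and 3 fell, among them Pdgfra (1.66, adjusted p = 0.0291) and Ly6a (-1.95, adjusted p = 0.0139), which is also interferon-inducible. Of 10 smooth muscle markers 2 rose and 3 fell, with Smtn at 0.60 and Myl9 at -1.79, and 1 of 2 endothelial markers tested rose. The summed fibroblast markers were at 1942 to 2344 CPM against 2062 to 2195 CPM and the summed smooth muscle markers at 852 to 1022 against 965 to 1178 CPM. The leukocyte markers were at 12.1 to 14.9 against 10.6 to 14.8 CPM, with 9 and 8 of 14 at 0 throughout, and the part of any of these in the member values was not tested.

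H2-K1 stood at 51.9, 52.6, 50.0 and 48.1 CPM in the control and at 30.4, 27.3, 30.3 and 32.7 CPM after long knockdown. Each knockdown library lay well under the lowest control library, and the difference on the log2 scale was -0.75 (SE 0.0755, adjusted p = 5.18e-07). H2-D1 was at 59.2, 57.6, 66.3 and 51.5 CPM in the control and at 35.4, 42.4, 37.8 and 38.8 CPM in the knockdown (-0.60, SE 0.0719, adjusted p = 3.99e-06). The light chain B2m had 343, 342, 329 and 451 CPM against 290, 247, 245 and 355 CPM. These ranges overlapped, because the P19 library was the highest of both groups. Within each batch B2m was lower in the knockdown, and it differed by -0.37 on the log2 scale (SE 0.121, adjusted p = 0.0315). That call was lost without the control library of P19 (adjusted p = 0.138) and without the knockdown library of P16 (0.0606), P17 (0.111) or P18 (0.111). It was also lost with no filter on low counts (0.0906) and without the other groups of the run in the fit (0.0851).

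The loading factor Tapbp had 235, 238, 255 and 228 CPM in the control and 188, 191, 180 and 193 CPM in the knockdown (-0.35, SE 0.0503, adjusted p = 3.83e-05), and the groups did not overlap. The Tapbp locus overlaps Zbtb22 on the same strand in the annotation used, and 19 of its 20 values in run 3 were not whole. Psmb10, an immunoproteasome subunit, had 14.9, 22.6, 18.2 and 16.9 CPM against 13.2, 13.2, 12.8 and 13.4 CPM, again without overlap (-0.46, SE 0.108, adjusted p = 0.00343). Its knockdown values were far closer together than its control values.

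Psmb8 stood at 4.75, 4.17, 4.04 and 2.24 CPM in the control and 1.87, 2.34, 2.12 and 1.65 CPM after knockdown. The control library of P19 lay inside the knockdown range, the log2 fold change was -0.92 (95% interval -1.79 to -0.06) and the adjusted p was 0.11, or 0.0043 with the batch as a block, 8.64e-05 without batch P19 and 0.0268 without the other groups in the fit. Tap1 (-0.05, 95% interval -0.28 to 0.17), Tap2 (0.16, -0.24 to 0.55), Psmb9 (-0.02, -0.54 to 0.50) and Nlrc5 (0.20, -0.75 to 1.14) were not called, with adjusted p of 0.579 or more. The intervals of Tap1, Tap2 and Psmb9 lay above the -0.75 of H2-K1, and that of Nlrc5 reached it. Nlrc5 had only 8 to 12 counts in each control library.

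With angiotensin II in both arms, long knockdown lowered 6 of the 10 members and raised none, beside 13.3% of all genes called lower and 13.4% higher. All 6 ranges were without overlap, against 12.4% of all genes. Of 7 fibroblast markers 1 rose and 3 fell (Pdgfra at 1.76, Ly6a at -2.02), of 10 smooth muscle markers 2 rose and 4 fell, 1 of 2 endothelial markers rose, and Cd14 rose (0.39, adjusted p = 0.03). The summed leukocyte markers were at 12.5 to 16.5 against 10.2 to 12.9 CPM, with 8 of 14 at 0 throughout in both groups. The part of these markers in the member values was not tested. H2-K1 had 53.6, 49.4, 48.6 and 55.9 CPM in the angiotensin II control and 28.5, 33.5, 29.0 and 33.9 CPM in the knockdown (-0.73, SE 0.0756, adjusted p = 6.37e-07). H2-D1 (-0.50, adjusted p = 3.96e-05), Tapbp (-0.34, adjusted p = 4.96e-05) and Psmb10 (-0.47, adjusted p = 0.00286) were lower too, beside -0.60, -0.35 and -0.46 without angiotensin II. B2m stood at 361, 366, 322 and 417 CPM against 251, 250, 265 and 318 CPM (-0.44, SE 0.122, adjusted p = 0.0114). Its call was lost without the control library of P19 (adjusted p = 0.0606).

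Psmb9 was called lower in this comparison, at 2.32, 2.49, 2.25 and 1.65 CPM against 4.09, 3.76, 4.08 and 3.11 CPM (-0.79, SE 0.253, adjusted p = 0.0248). The call did not hold without the control library of P16 (adjusted p = 0.056) or P18 (0.0543), or the knockdown library of P19 (0.0564). Psmb9 and Tap1 overlap by 212 bases on opposite strands. In run 3 both of their deposited values were not whole in 16 of 20 libraries, and in all 16 the sum was whole (within 0.02 counts), so reads had been divided between the pair. Tested as 1 feature, their sum gave -0.16 (adjusted p = 0.308). Tap1 holds most of the reads of that sum, so this value does not show whether the lower Psmb9 value comes from the division of reads. Tap2 was higher in the knockdown, at 29.1, 28.9, 25.6 and 20.6 CPM against 21.2, 20.1, 19.2 and 17.3 CPM, and higher in each batch, but was not called (0.42, adjusted p = 0.108). With the batch as a block its adjusted p was 0.00382, without the knockdown library of P19 it was 0.0467, without batch P19 0.000197, and with only the groups compared 0.0261. Psmb8 gave -0.79 (adjusted p = 0.173, 0.0174 with the block and 0.000732 without batch P19).

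**Figure D3:**
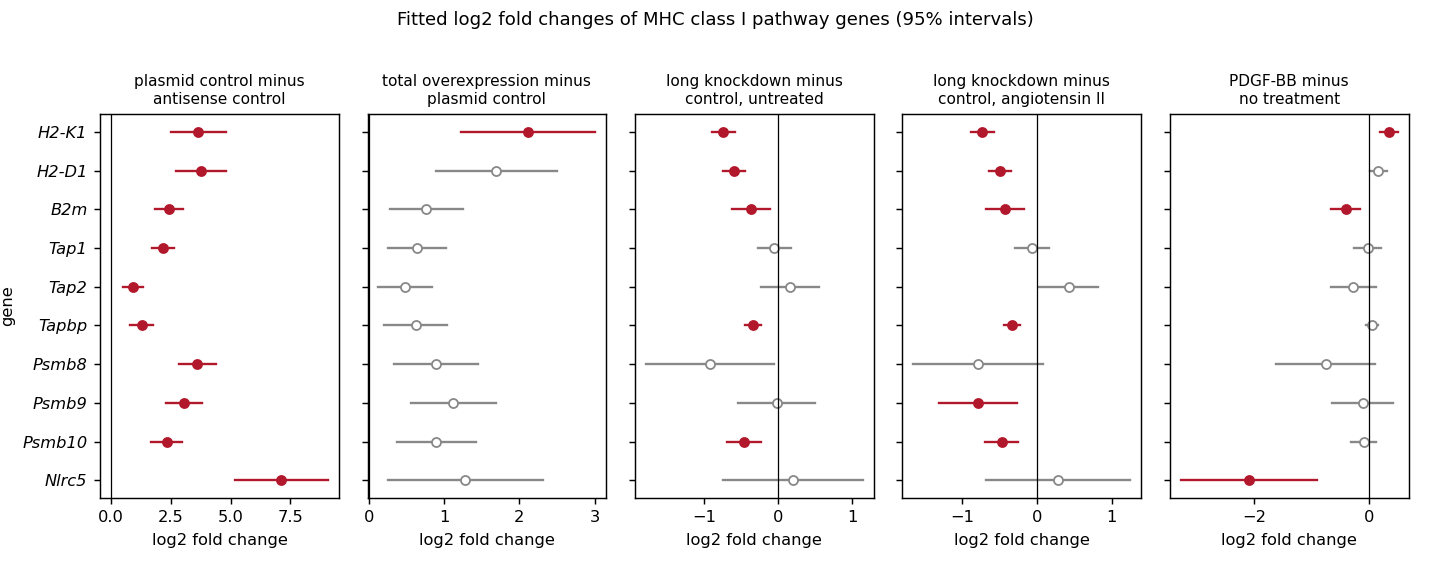
Log2 fold change of each member in 5 comparisons, as points with 95% intervals from the fit and an axis of its own for each comparison. Filled red points passed an adjusted p of 0.05 and open grey ones did not. Plasmid transfection gave 10 higher members and long knockdown gave lower ones only, among those called.

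Angiotensin II on its own moved no member past the test. In control cells the log2 fold changes of the 10 ran from -0.22 to 0.44 and in long knockdown cells from -0.33 to 0.12. Adjusted p by edgeR was 1.00 for each, no member had an unadjusted p under 0.05, and DESeq2 called none. Over all genes 0% were called in either arm by edgeR, with 156 and 174 genes at an unadjusted p under 0.05, and DESeq2 called 1 gene in control cells and 0 in knockdown cells. The difference between the 2 knockdown effects, tested as an interaction, was not called for any member by edgeR or DESeq2. Psmb9 came nearest and was the only one with an unadjusted p under 0.05 (-0.78, with an edgeR quasi-likelihood adjusted p of 1.00). Among all 15103 genes, 166 had an unadjusted p under 0.05 for that difference. For H2-K1 the interval of that difference was -0.21 to 0.23.

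PDGF-BB moved the members in both directions. The heavy chain H2-K1 rose, the light chain B2m fell, Nlrc5 fell, and the other 7 were not called. Of all genes, 23.6% were called higher and 20% lower, so 1 higher of 10 is a smaller share than that of the background and 2 lower of 10 the same share. The long knockdown and PDGF-BB comparisons share the untreated control libraries.

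H2-K1 was at 65.5, 58.7, 62.7 and 69.1 CPM with PDGF-BB, all above the 48.1 to 52.6 CPM of untreated cells (0.34, SE 0.0741, adjusted p = 0.000968). B2m was at 259, 256, 287 and 302 CPM, all under the 329 to 451 CPM of untreated cells (-0.41, SE 0.121, adjusted p = 0.0099). Without the untreated control library of P19 the B2m value was -0.28 (adjusted p = 0.0683). The mean ratio of B2m to H2-K1 per kilobase was 7.86 with PDGF-BB and 13.3 without. Nlrc5 had 3, 1, 3 and 1 counts with PDGF-BB and 12, 10, 12 and 8 without. Summed over the group, 8 against 42 counts gave a ratio of 0.23 with a counting interval of 0.0934 to 0.497, and the fitted log2 fold change was -2.09 (adjusted p = 0.0052). Nlrc5 did not pass the filter when only these groups were fitted.

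H2-D1 (65.0, 64.6, 63.0 and 68.1 CPM) overlapped its untreated range and gave 0.15 (adjusted p = 0.088, and 0.014 without the untreated library of P18). Tapbp (0.04, 95% interval -0.06 to 0.15) and Tap1 (-0.03, -0.26 to 0.20) had narrow intervals around 0. Psmb8 stood at 2.86, 2.98, 2.69 and 0.458 CPM, lower than untreated in each batch (-0.75, adjusted p = 0.147, 0.00416 with the block and 0.00897 without batch P19). Tap2 gave -0.28 (adjusted p = 0.252, and 0.0269 with the block). The block thus raised the members called to 5, with 1 higher and 4 lower, in a fit that called 28.3% of all genes higher and 26.2% lower. Fibroblast markers also differed between these groups: their summed level was 924 to 1234 CPM with PDGF-BB and 2062 to 2195 CPM without, and that of the smooth muscle markers 777 to 880 against 965 to 1178 CPM. Single markers went both ways. Among 7 fibroblast markers tested 1 was called higher (Pi16, 0.57) and 4 lower, and among 10 smooth muscle markers 2 rose (Smtn at 1.03) and 2 fell (Acta2 at -0.94). Endothelial markers summed to 0.356 to 1.05 against 1.25 to 2.76 CPM, with 1 of 2 tested called lower. Their part in the member values was not tested.

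The 3 immunoproteasome subunits take the places of Psmb5 (replaced by Psmb8), Psmb6 (by Psmb9) and Psmb7 (by Psmb10) in the catalytic core. Per kilobase, Psmb8 was 0.0125 of Psmb5 in the antisense control of run 2, 0.153 in the plasmid control and 0.252 with overexpression. Psmb9 was 0.0137, 0.119 and 0.235 of Psmb6 in the same order, and Psmb10 was 0.182, 0.923 and 1.61 of Psmb7. The constitutive subunits themselves hardly moved between plasmid and antisense control: 0.02 for Psmb5, -0.04 for Psmb6 and 0.01 for Psmb7 on the log2 scale, with adjusted p of 0.934 or more. With overexpression against plasmid control they were at 0.20, 0.11 and 0.09, and none was called.

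In run 3 the constitutive subunits moved. With PDGF-BB, Psmb5 (0.41, adjusted p = 0.00166), Psmb6 (0.30, adjusted p = 0.00154) and Psmb7 (0.53, adjusted p = 0.00118) rose, and the Psmb10 to Psmb7 ratio was 0.115 with PDGF-BB and 0.177 without, with no overlap. Over 18 such exact permutation tests of ratios in run 3 (two-sided, 4 libraries a group), this one reached p = 0.0286, the smallest these groups allow, and 0.129 after adjustment. The same values held for Psmb9 to Psmb6 after long knockdown with angiotensin II (0.0183 against 0.0280), for B2m to H2-K1 with PDGF-BB, and for B2m to H2-K1 after long knockdown with angiotensin II (15.9 against 12.9). None of the 18 passed after adjustment. With 0.0286 the smallest p possible, 1 ratio alone could not have passed over 18 tests, so this does not show that the ratios were unchanged. The tests also ignored batch. Several ratios with overlapping ranges moved the same way in every batch, among them Psmb8 to Psmb5, which was lower with PDGF-BB.

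**Figure D4:**
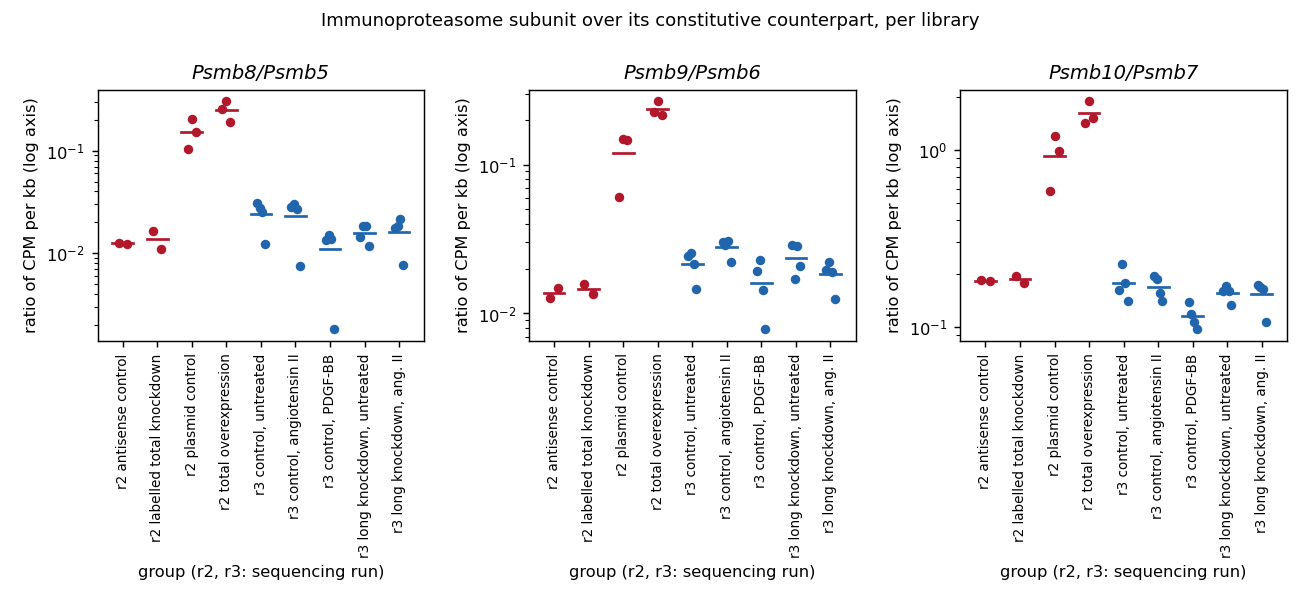
Ratio of each immunoproteasome subunit to the constitutive subunit it replaces, per kilobase of transcript, on a log axis. Points are libraries and dashes are group means, in red for run 2 and blue for run 3. The mean of all 3 ratios was highest with overexpression, where Psmb10 to Psmb7 averaged 1.61.

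The other genes of the pathway were read from lists, whose counts stand against the shares of all genes called: 1.15% higher in plasmid over antisense control and 1.09% higher with overexpression, 12.3% higher and 12.8% lower in untreated long knockdown, 13.4% and 13.3% with angiotensin II, and 23.6% higher and 20% lower with PDGF-BB. Of 10 peptide loading and trimming partners, 2 rose in plasmid over antisense control: Erap1, the peptide-trimming aminopeptidase (65.7 ± 18.4 against 20.0 ± 0.298 CPM, log2 fold change 1.72, adjusted p = 0.00732), and the tapasin relative Tapbpl (1.42, adjusted p = 0.0196). The chaperones Calr (0.45, adjusted p = 0.592) and Pdia3 (0.45, adjusted p = 0.548) did not pass. In untreated long knockdown 7 of the 10 fell and none rose, among them Calr (350 ± 75.5 against 524 ± 27.9 CPM, -0.58, adjusted p = 0.00194), Pdia3 (-0.41, adjusted p = 0.00266) and Erap1 (-0.45, adjusted p = 0.000335). With angiotensin II 7 fell and 1 rose, the translocon subunit Sec61a1 (0.19, adjusted p = 0.0336). With PDGF-BB 8 of the 10 rose and none fell, led by the endoplasmic reticulum chaperone Hspa5 (717 ± 77.0 against 407 ± 17.8 CPM, 0.82, adjusted p = 5.5e-07), with Calr at 0.58 and Pdia3 at 0.54. Erap1 was at 0.00 (adjusted p = 0.969) with PDGF-BB.

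Of 13 constitutive proteasome subunits and activators, 2 rose in plasmid over antisense control. Both encode the interferon-inducible 11S activator: Psme1 (0.99, adjusted p = 0.00511) and Psme2 (1.203, adjusted p = 0.00674). In long knockdown 8 of the 13 fell in each arm, among them, in untreated cells, Psme1 (-0.45, adjusted p = 1.37e-05), Psme2 (-0.67, adjusted p = 9.71e-05) and Psmb5 (-0.34, adjusted p = 0.0136). PDGF-BB raised 10 of the 13, with the regulatory subunit Psmd1 at 0.69 (adjusted p = 6.81e-05), and lowered 1, which was Psme1 (-0.15, adjusted p = 0.0402). Of 13 other class I and class I-like genes tested in run 2, 4 rose with plasmid, including H2-T23, which encodes Qa-1 (218 against 71.9 CPM, 1.60, adjusted p = 0.0123), and H2-Q4 (5.89, adjusted p = 0.0233, and 0.137 with the block). In run 3, 4 of 9 tested fell in untreated long knockdown and 2 with angiotensin II, among the former Mr1 (-0.44, adjusted p = 0.000171), which presents microbial metabolites. PDGF-BB lowered 4 of 9, with the lipid-presenting Cd1d1 at -1.32 (adjusted p = 2.39e-06) and H2-T23 at -0.66 (adjusted p = 0.000293).

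Among regulators, 5 of 20 transcription factors of class I promoters rose in plasmid over antisense control and none fell. Irf7 (385 ± 162 against 3.68 ± 0.0363 CPM, 6.71, adjusted p = 0.000138) and Irf1 (1.05, adjusted p = 0.0137) were among them, while Rfx5, a subunit of the SXY-binding complex, was not called (0.46, adjusted p = 0.573). With overexpression 4 of the 20 rose, including Relb of the NF-kB family (54.4 ± 8.38 against 20.2 ± 0.666 CPM, 1.43, adjusted p = 0.00106) and Irf1 (0.75, adjusted p = 0.0393). In untreated long knockdown 2 rose and 7 fell (3 and 5 with angiotensin II), with Irf2 at 0.55 (adjusted p = 0.000742), Irf7 at -1.07 (adjusted p = 0.0123), Irf1 at -0.26 (adjusted p = 0.0332) and Rfx5 at -0.33 (adjusted p = 0.0227). PDGF-BB raised 5 and lowered 2 of the 20, a share near that of all genes for the former and under it for the latter, and Irf1 was not called (-0.12, adjusted p = 0.282). Nfkb1 was the 1 factor called in the libraries labelled total knockdown (-0.79, adjusted p = 0.0391).

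Interferon-stimulated genes outside the class I pathway were counted beside the members. In plasmid over antisense control 31 of 34 rose (median 5.52) and 12 of 15 guanylate-binding and immunity-related GTPases rose (median 6). With overexpression none of either list was called by edgeR without the block. At an unadjusted p under 0.05 were 9 of 34 (8 higher and 1 lower) and 4 of 15 (4 higher), beside 2295 of all 15350 genes. With the block 8 and 7 were called higher, beside 9.4% of all genes. In untreated long knockdown 21 of 31 and 9 of 12 fell (medians -0.93 and -1.09), with angiotensin II 19 and 7 (medians -0.74 and -1.05), and with PDGF-BB 15 of 31 and 10 of 12 (medians -0.40 and -1.25). In untreated long knockdown the antiviral gene Oasl2 was at 4.57 against 13.1 CPM (-1.51, adjusted p = 0.00161) and the GTPase Tgtp1 at 3.06 against 17.7 CPM (-2.51, adjusted p = 1.86e-06). With PDGF-BB, Ifit3 was at 6.60 against 24.2 CPM (-1.88, adjusted p = 9.77e-08).

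Of 11 interferon receptor and signalling genes, 3 rose with overexpression and none fell, led by Ifnar2, a chain of the type I interferon receptor (135 ± 9.92 against 59.4 ± 3.64 CPM, 1.18, adjusted p = 0.00106). In plasmid over antisense control 2 rose, among them Usp18, an interferon-induced inhibitor of that receptor (186 ± 84.9 against 0.257 ± 0.0144 CPM, adjusted p = 0.000158). In untreated long knockdown 2 rose and 6 fell, with the receptor kinase Jak1 at 0.42 (adjusted p = 3.14e-05) and the phosphatase Ptpn2 at -0.82 (adjusted p = 6.73e-08), and with angiotensin II 1 rose and 5 fell. PDGF-BB raised 3 and lowered 3, with Ptpn2 at 0.41 (adjusted p = 6.23e-05) and Socs3 at -0.54 (adjusted p = 0.0206). Among surface and checkpoint genes, Cd274, which encodes PD-L1, rose with plasmid (2.51, adjusted p = 0.0247). Cd47, a signal against phagocytosis, rose with overexpression (0.97, adjusted p = 0.0467) and fell in untreated long knockdown (157 against 275 CPM, -0.81, adjusted p = 1.5e-05). Ifnb1, the type I interferon gene, had 0, 5 and 5 counts in the plasmid control, 9, 13 and 24 with overexpression and 0 in both antisense groups of run 2 and in all 20 libraries of run 3. MHC class II was nearly unexpressed: 3 of 12 genes passed the filter in run 3, and Ciita, the class II transactivator, was not among those tested. Cd74, the class II invariant chain, fell in long knockdown (-2.44, adjusted p = 0.00173).

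**Figure D5:**
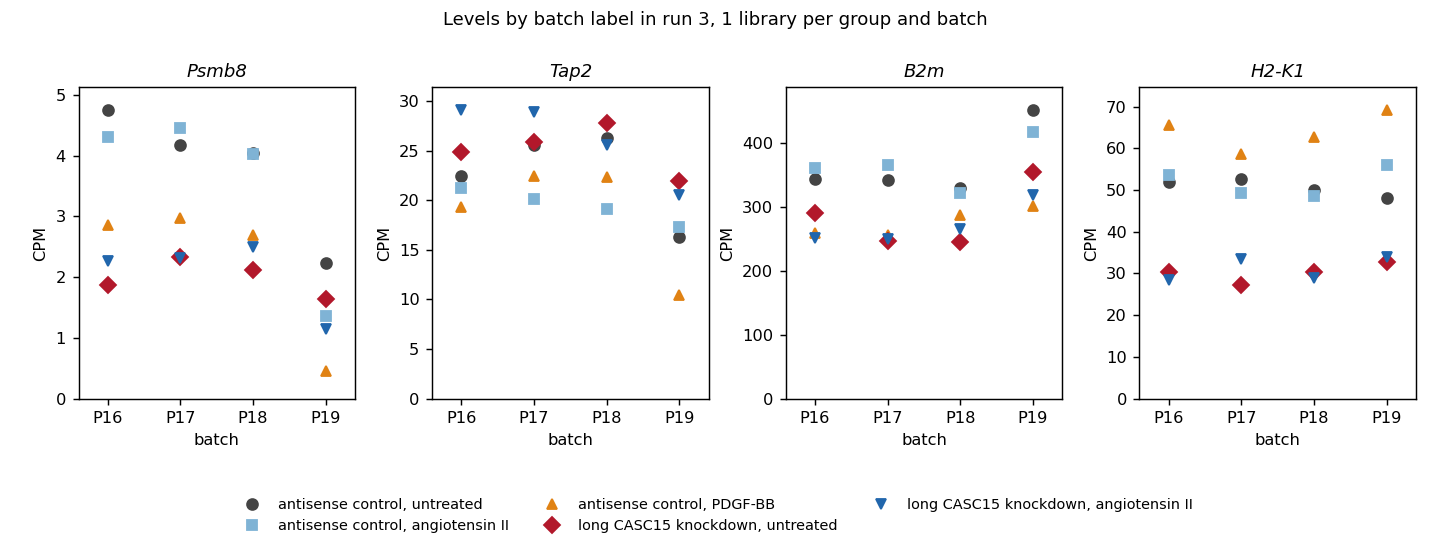
Level of B2m, H2-K1, Psmb8 and Tap2 in run 3 by batch, in CPM on a linear axis from 0, with 1 point per library, marked by group. B2m was highest and Psmb8 and Tap2 were lowest in P19 in all 5 groups.

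Batch P19 stood apart in run 3 for several members. B2m was highest in P19 in 5 of 5 groups (P19 minus the mean of the others 0.32 on the log2 scale, from 0.18 to 0.45, after adding 0.1 CPM). Psmb8 was lowest there in 5 of 5 groups (mean -1.24, from -2.40 to -0.33), and so was Tap2 (mean -0.51, from -1.02 to -0.22). Psmb9 was lowest in 4 of 5 groups. Within each group, then, the light chain and Psmb8 moved in opposite directions between P19 and the rest. The long knockdown values of H2-K1 were lower than the control in each of the 4 batches.

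Over the 10 libraries of run 2, the log2 CPM of the members rose and fell together: Pearson r over the 45 pairs ran from 0.90 to 1.00, with a median of 0.98. With group means removed it ran from 0.29 to 0.98, with a median of 0.82. Over the 20 libraries of run 3 the median was 0.26 (from -0.63 to 0.95) and, with group means removed, 0.06. The points share libraries and groups, so these are descriptions. The genes whose level in run 3 was most like the mean of the members were Parp10 (r = 0.98), Cebpd (0.95), Ece1 (0.94), Tgtp2 (0.94), Oas1g (0.93), Disp1, Gm36283 and Oasl2 (0.92 each), and Irak4 and Paqr7 (0.91 each). Over the 10 libraries of run 2, r with the members was 0.98 for Parp10, 0.98 for Oas1g, 0.97 for Tgtp2 and 0.96 for Oasl2, but 0.35 for Irak4, -0.41 for Paqr7 and -0.52 for Gm36283.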

How the data were processed

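RNA of 30 libraries was measured in 2 sequencing runs. The authors deposited 1 table of RSEM expected counts per gene, not scaled to depth. The submitters' processing notes name STAR 2.7.11b, RSEM 1.3.1 and the builds GRCm39 and mm10, and the annotation and strand setting are not given in the sources used here, so antisense neighbours cannot be told apart. Values that were not whole (2099 to 2331 per library in run 2, 4429 to 5309 in run 3) come from reads divided among genes, and expected counts were rounded. Some titles number CASC15 upward across replicates, so groups follow the library-name code. Symbols came from a GENCODE mouse annotation by Ensembl identifier without version: 51486 matched, 26848 did not, and matched identifiers held 98.7% of counts. No table used here pairs 2610307P16Rik with CASC15, and it was assigned by its place beside Sox4.

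Each run was fitted over all its groups with edgeR 4.0.16 (R 4.3.3): genes kept at a minimum count of 10 in enough libraries and 15 in total (15350 and 15103 genes), TMM scaling, robust quasi-likelihood test and Benjamini-Hochberg adjustment over all genes tested, called under 0.05. The common biological coefficients of variation were 0.232 and 0.148. The code was tested on simulated data with 200 changed genes. CPM use the library total after TMM scaling, and CPM per kb the annotated transcript length. Counting intervals are exact, and cover counting error only. The members and lists were chosen with earlier results of these data known. The rule for named genes gave the members, the called gene of each list with the largest change in each direction at a mean of 5 CPM or more, and fixed partners (Psmb5, Psmb6, Psmb7, Irf1, Rfx5, Calr, Pdia3, Erap1, Tapbpl, Psme1, Psme2, Ciita, Cd74), and 1 further partner is not reported here. Not every gene the rule gave is printed. Other genes named (among them Cd68, Ifnb1, H2-T23 with plasmid, and marker genes) were picked after their values were seen.

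Batch labels pair same-numbered libraries: deviations from group means correlated at a mean of 0.230 within a batch and -0.121 across in run 2, and at 0.197 and -0.0606 in run 3. Alternatives were DESeq2 1.42.0, its size factor scaling, no filter, a mean CPM filter, only the groups compared, the batch as a replicate block and each library left out. Chosen after seeing the data were leaving out batch P19 and summing Tap1 with Psmb9.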

Additional observations from a re-analysis of the deposited data

Results flagged for a closer look

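In run 3, 3 of 50 combinations of a member and a group of 4 held a library far from the other 3 by Dixon's test at the 95% level, where chance gives about 1 in 20. All 3 lay in batch P19. B2m in the untreated control stood at 450.6 CPM in P19 and at 329 to 343 CPM in the other batches. Psmb8 in the angiotensin II control stood at 1.356 CPM in P19 and at 4.03 to 4.46 CPM in the others. Psmb8 in the PDGF-BB control stood at 0.4581 CPM in P19 and at 2.69 to 2.98 CPM in the others.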

How the results depend on the processing

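Of 1350 member values under alternatives, 1255 stayed on their side of the threshold, 38 lost a call and 57 gained one. The sign differed from the reported value in 91, none of them called in either fit. For total knockdown, 317 genes and 0 members were called. DESeq2 gave 719 genes and 1 member, no filter 1325 and 2, only the groups compared 1079 and 3, the replicate block 2209 and 1. A mean CPM filter gave 190 genes, no P19 1041, and leaving out 1 library 4 to 188. For overexpression, 253 genes and 1 member were called. DESeq2 gave 807 and 8, no filter 1363 and 10, only the groups compared 66 and 0, the replicate block 2721 and 9, no P19 844 and 7, and leaving out 1 library 86 to 867 genes and 0 to 7 members. For plasmid against antisense control, 181 genes and 10 members were called. DESeq2 gave 347 genes, no filter 1106, only the groups compared 101 (7 members), the replicate block 459 (8 members), and leaving out 1 library 67 to 277 genes and 4 to 10 members. Long knockdown called 3783 genes untreated and 4033 with angiotensin II. The block gave 6126 and 6238, no P19 6062 untreated, and leaving out 1 library 2889 to 4882 and 3042 to 4880. For angiotensin II in control cells and for the interaction, DESeq2 and only the groups compared each gave 1 gene in place of 0. With PDGF-BB, the block called 5 members in place of 3. The cause of these moves was not tested. The block changed no other call of a member than those given beside the results. Nlrc5 had 1 to 12 counts in each untreated or PDGF-BB control library of run 3 and 3 or 4 in the antisense control of run 2, so its folds there carry wide counting intervals.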
